A study of Caenorhabditis elegans with 8 samples.

Results

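Lysozymes are enzymes that cut the peptidoglycan of bacterial cell walls. Caenorhabditis elegans feeds on bacteria, and its lysozymes serve both digestion and defence, mostly in the intestine. The worm has a protist-type family, the lys genes, and an invertebrate-type family, the ilys genes. Several of them are known as read-outs of the pathways that govern defence, among them insulin signalling through DAF-16 and TGF-beta signalling through DBL-1.

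The 8 lysozyme genes described here are lys-1, lys-2, lys-4, lys-5, lys-7, lys-8, ilys-2 and ilys-3. They were found by symbol in the authors' poly(A) table, which has 44968 genes, and by sequence name in the authors' rRNA-depleted table, which has 25640 genes after repeated rows were counted once. All 8 were present in both.

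The animals were synchronized young adults from liquid culture, either wild type or treated with RNAi against CstF50, which belongs to the complex that cleaves pre-mRNA at its 3′ end. The worm gene of CstF50 is cpf-1. The poly(A) columns name wild type as N2 with the empty vector L4440, and the design text also places wild type on the empty vector. The 8 libraries form 4 groups of 2: poly(A)-selected RNA of wild type and of CstF50 RNAi, and rRNA-depleted RNA of both. No label says whether the 2 libraries of a group came from separate cultures, so the spread between them may be technical. The rRNA-depleted table calls its conditions only A and B and does not say which is wild type, so its values are given as B against A and no treatment is attached to them. In these whole animals, fewer cells of a type and less RNA per cell cannot be told apart.

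The poly(A) values are 1 FPKM per gene and group (fragments scaled to transcript length and to sequencing depth), with no value per library and unknown depth. The rRNA-depleted values are means of normalized counts, from which whole counts per library could be recovered for all 8 genes. Recovered counts summed to 8287830 and 2852379 for condition A, and for condition B to 35793329 and 15120881, without the most abundant genes. In the authors' deposited table the targeted gene cpf-1 had 50.5 FPKM in wild type against 67.8 FPKM in the group labelled CstF50 RNAi (q-value 0.613), so it was not lower there. In rRNA-depleted RNA it had 1695 normalized counts in A against 8662 in B (adjusted p-value 0.00296). The median log2 fold change of all tested genes in poly(A) RNA was -0.90 (8244 genes), and in rRNA-depleted RNA it was 0.02 (19779 genes with both means above 0).

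In poly(A) RNA, lys-7 and ilys-2 were higher in CstF50 RNAi, by 3.36-fold and 30.4-fold, while lys-1, lys-2, lys-4, lys-8 and ilys-3 did not pass the authors' test. In rRNA-depleted RNA, lys-7, lys-8, ilys-2 and ilys-3 were higher in condition B and lys-4 was lower. The lys-7 mean differed 8.52-fold there. The authors' tests thus called 2 of 7 tested members in poly(A) RNA, both higher, where 16.8% of all tested genes were called, 3.12% as higher and 13.6% as lower. Tested relative to the median gene, the same pair was called among 6 members, both higher, where 6.14% of genes were called, 5.63% as higher and 0.51% as lower. In rRNA-depleted RNA the authors called 4 of 8 members higher and 1 lower in B, where 8.31% of all genes were called, 5.54% as higher and 2.77% as lower. The lysozyme median log2 fold change was 0.31 over the 6 tested members with both values above 0 in poly(A) RNA. It was 0.70 over 8 members in rRNA-depleted RNA with ilys-3 at its lower bound, and 0.42 over the other 7.

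**Figure D1:**
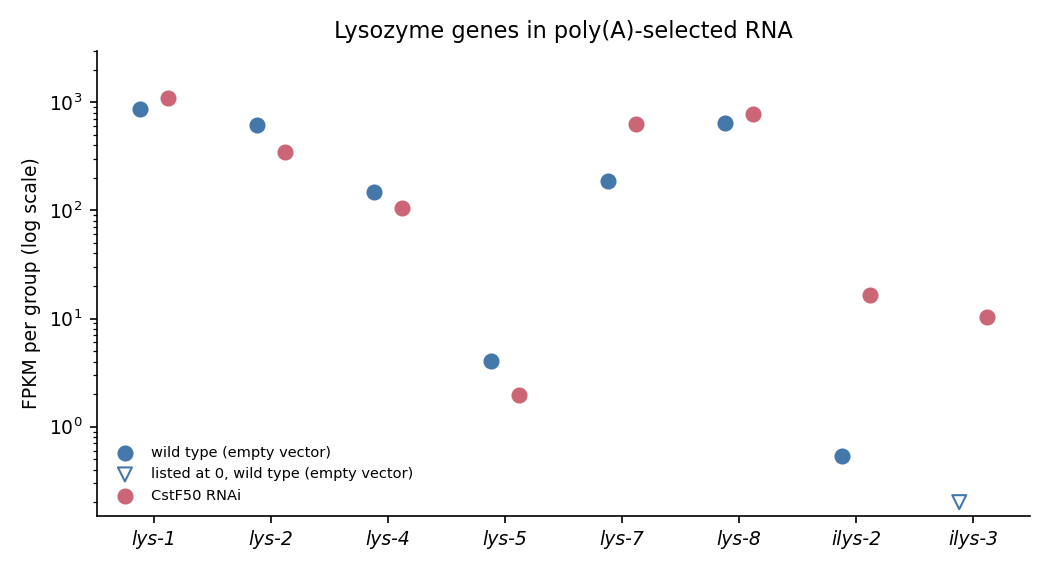
FPKM (log scale) of the 8 lysozyme genes in poly(A)-selected RNA, 1 value per group as deposited by the authors; the triangle marks a value listed at 0. The points of lys-7 rise from 189 to 634 FPKM and those of ilys-2 from 0.54 to 16.4 FPKM, while the other pairs with 2 values above 0 lie close together on this scale.

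In wild-type poly(A) RNA the order of the levels in FPKM was lys-1, lys-8, lys-2, lys-7, lys-4, lys-5, ilys-2 and ilys-3. In CstF50 RNAi lys-7 stood in the third place, ahead of lys-2, and ilys-2 and ilys-3 stood ahead of lys-5. Without values per library, neighbours in this order could not be compared with their spread. The 8 genes summed to 2470 FPKM in wild type against 2992 FPKM under CstF50 RNAi. The genes lys-1, lys-2 and lys-8 held 86.2% of that sum in wild type and 74.3% in CstF50 RNAi, and lys-7 held 7.65% and 21.2%.

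For rRNA-depleted RNA, levels between genes were compared as normalized counts per kilobase of merged exons, with exon lengths from the Ensembl annotation of WBcel235. In A they ran from lys-1 at 4512 through lys-2 at 2777, lys-8 at 1861, lys-4 at 1497, lys-7 at 404 and lys-5 at 112 to ilys-2 at 1.38 and ilys-3 at 0. The 2 libraries of A kept these neighbours apart except for ilys-2 and ilys-3. In B the order was lys-1 at 6022, lys-8 at 3692, lys-7 at 3439, lys-2 at 1991, lys-4 at 823, ilys-2 at 112, ilys-3 at 106 and lys-5 at 64.9. In B the libraries of lys-8 (3575 and 3808) and lys-7 (3174 and 3704) overlapped, so that pair could not be ranked, and ilys-2 (106 and 117) lay within rounding of ilys-3 (105 and 106). The step of lys-7 from the fifth place in A to the level of lys-8 in B changed the order among the abundant genes, as lys-2 and lys-4 came to lie below it.

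The protist-type gene lys-7 (C02A12.4, chromosome V, 3481415 to 3482599 on ce10) is a known target of the insulin pathway transcription factor DAF-16 and is linked to resistance against several bacteria. Its values in the authors' deposited table were 189 FPKM in wild type against 634 FPKM under CstF50 RNAi. The log2 fold change was 1.75 (SE 0.49, implied by the authors' p-value; 95% interval 0.79 to 2.71) with a q-value of 0.0074. By level it moved from rank 1240 to rank 363 of 8513 tested genes. Relative to the median gene its log2 fold change was 2.64 (adjusted p = 7.29e-06).

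In rRNA-depleted RNA, lys-7 had 292 and 83 counts in A, and the counts in B were 10399 and 5148. Scaled by the authors' size factors these were 395 and 333 normalized counts in A against 2863 and 3341 in B. Both libraries of B lay far above both of A. The authors' means were 364 in A and 3102 in B, with 4.24e-27 as their adjusted p-value. The limma-voom fit over all recovered genes gave a log2 fold change of 3.02 (SE 0.18, adjusted p = 1.03e-05), and between 2.94 and 3.23 with any 1 library left out.

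**Figure D2:**
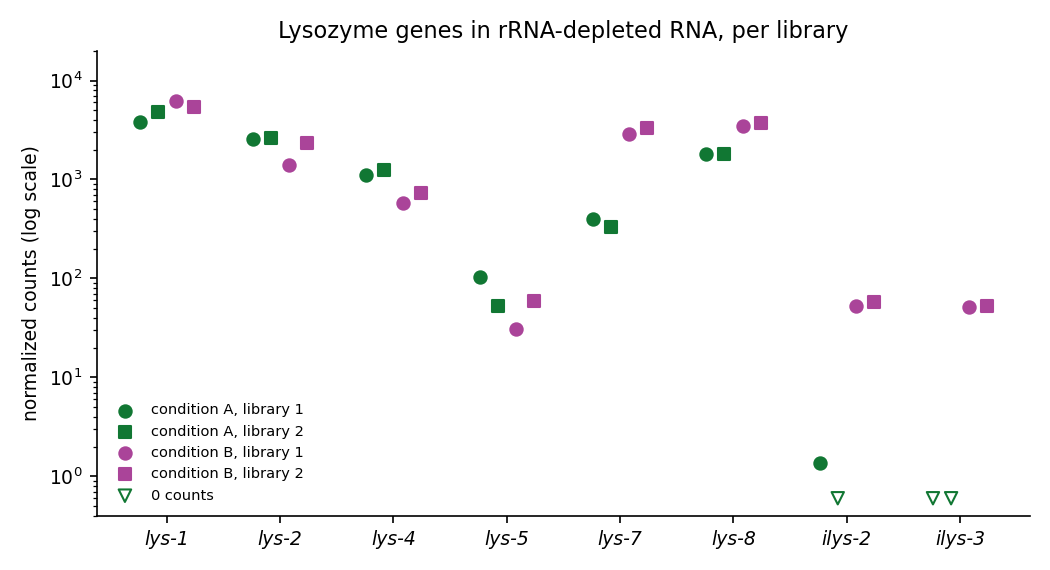
Normalized counts (log scale) of the 8 lysozyme genes in each of the 4 rRNA-depleted libraries, 2 of condition A and 2 of condition B; open triangles mark 0 counts. The libraries of B lie above those of A for lys-7, with 2863 and 3341 against 395 and 333, and the 2 ilys genes are near 0 in A and between 52.0 and 57.8 in B.

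The other protist-type gene that the authors' test called higher in B was lys-8 (C17G10.5), known as a target of the DBL-1 pathway. It had 1339 and 448 counts in A and 12596 and 5691 in B. As normalized counts these were 1812 and 1798 in A against 3468 and 3694 in B, with no overlap and little spread within a condition. The difference was 1.98-fold (authors' adjusted p-value 8.58e-05), and limma-voom gave a log2 fold change of 0.98 (SE 0.09, adjusted p = 8.84e-05).

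In poly(A) RNA, lys-8 had 643 FPKM in wild type against 779 FPKM under CstF50 RNAi. Its log2 fold change of 0.28 (implied SE 0.56) did not pass (q-value 0.736), and its 95% interval of -0.82 to 1.37 includes a change of the size seen between A and B. The authors' locus for lys-8 on chromosome II, 5586147 to 5593410 on ce10, is shared with the phosphatase gene cdc-14, which had 29.6 and 19 FPKM. In rRNA-depleted RNA cdc-14 had 1957 and 1935 normalized counts in A and B (log2 fold change -0.02, adjusted p-value 1).

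The gene lys-1 (Y22F5A.4, chromosome V, 10277801 to 10279102) is strongly expressed in the intestine, and its overexpression is known to raise resistance to Serratia marcescens. It had the highest level of the 8 in both groups, with 862 FPKM in wild type against 1097 FPKM under CstF50 RNAi, ranks 345 and 250 of the tested genes. The log2 fold change was 0.35 (implied SE 0.46, 95% interval -0.55 to 1.25) and did not pass (q-value 0.59). Its normalized counts in rRNA-depleted RNA were 3846 and 4809 in A against 6206 and 5345 in B.

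The libraries of lys-1 did not overlap, but the gap between the conditions was narrower than the gaps within them. The authors' test did not call it (log2 fold change 0.42, adjusted p-value 0.189). By limma-voom it passed, with a log2 fold change of 0.50 (SE 0.12, adjusted p = 0.0137). Without library 1 of A the log2 fold change was 0.30, from a fit that keeps only 1 library of A.

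The neighbour lys-2 (Y22F5A.5, chromosome V, 10280284 to 10281445) encodes another protist-type lysozyme and lies 1181 bases from lys-1, on the opposite strand. It had 623 FPKM in wild type against 348 FPKM under CstF50 RNAi. The log2 fold change of -0.84 (implied SE 0.45, 95% interval -1.73 to 0.04) did not pass (q-value 0.172), and relative to the median gene it was 0.06. In rRNA-depleted RNA lys-2 had 2538 and 2633 normalized counts in A against 1396 and 2311 in B.

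The libraries of B differed from each other in lys-2 by more than the higher of them differed from A. The authors' adjusted p-value was 0.714, and by limma-voom the log2 fold change was -0.60 (SE 0.22, adjusted p = 0.0669). Without library 2 of B it was -0.86, and without library 1 of B it was -0.16. Each of these 2 fits keeps only 1 library of B and so holds no spread within B.

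The gene lys-4 (F58B3.1, chromosome IV, 11621419 to 11623101), a protist-type lysozyme, was the 1 member called lower. It had 812 and 314 counts in A and 2077 and 1117 in B, which are 1099 and 1261 normalized counts in A against 572 and 725 in B. Both libraries of B lay below both of A. The mean was 1.82-fold lower in B (authors' adjusted p-value 0.0203), and limma-voom gave a log2 fold change of -0.87 (SE 0.14, adjusted p = 0.00244). The poly(A) level was 148 FPKM in wild type against 106 FPKM under CstF50 RNAi. That log2 fold change of -0.48 (implied SE 0.54, 95% interval -1.54 to 0.58) did not pass (q-value 0.528), and relative to the median gene it was 0.41.

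The next gene along the chromosome is lys-5 (F58B3.2, 11624231 to 11625559), which has been studied with lys-7 in infection by Bacillus thuringiensis. Among the 6 lys genes of the 8 members it had the lowest level, with 4.08 FPKM in wild type against 1.94 FPKM under CstF50 RNAi, and the authors had not tested it there. In rRNA-depleted RNA it had 77 and 13 counts in A and 113 and 92 in B. Scaled, these were 104 and 52.2 normalized counts in A against 31.1 and 59.7 in B. The conditions overlapped, and no difference was detectable at this depth (authors' adjusted p-value 0.649, limma-voom log2 fold change -1.15 with SE 0.44 and adjusted p = 0.0807). Without library 2 of B the limma-voom log2 fold change was -1.48, and without library 1 of A it was -0.41. Each of these fits keeps only 1 library in a condition.

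**Figure D3:**
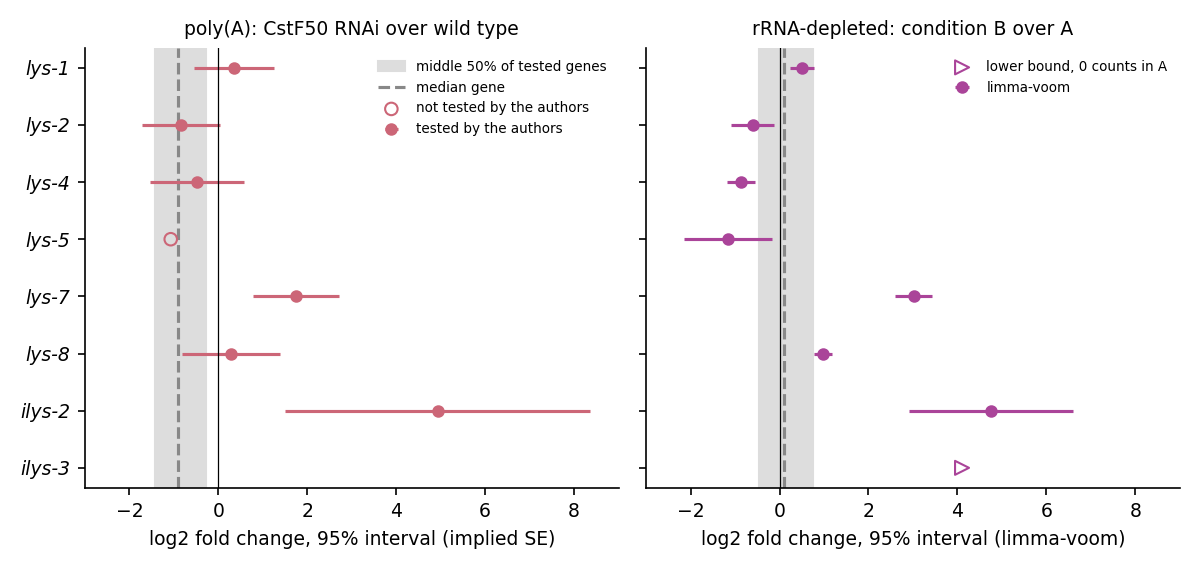
Log2 fold changes of the 8 lysozyme genes with 95% intervals, in poly(A) RNA from the SE that the p-value implies (left; ilys-3 has no fold, and lys-5 was not tested and has no interval) and in rRNA-depleted RNA from limma-voom (right; ilys-3 is drawn at its lower bound). The dashed lines mark the median gene at -0.90 and 0.11, and the grey bands the middle 50% of genes. To the right of the band in both panels lie lys-7 (1.75 and 3.02), lys-8 (0.28 and 0.98) and ilys-2 (4.93 and 4.76).

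Both invertebrate-type genes were at or near 0 on 1 side of each comparison. The gene ilys-2 (C45G7.2, chromosome IV, 2467679 to 2468878) had 0.54 FPKM in wild type against 16.4 FPKM under CstF50 RNAi. The log2 fold change was 4.93 with a wide interval (implied SE 1.75, 95% interval 1.5 to 8.36; q-value 0.0358). It ranked 49 of 8244 genes by log2 fold change. When p-values were adjusted over every gene listed, also those not tested, it did not pass (adjusted p = 0.178).

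In rRNA-depleted RNA, ilys-2 had 1 and 0 counts in A and 190 and 89 in B. In B these were 52.3 and 57.8 normalized counts, so its libraries were close to each other and far from A. The pooled ratio of B to A was 53.3, with an exact 95% interval from 9.48 to 2112 that covers counting error only. The authors' adjusted p-value was 0.000481. By limma-voom the log2 fold change was 4.76 (SE 0.82, adjusted p = 0.003), a value that depends on how a count of 0 is treated.

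The gene ilys-3 (C45G7.3, chromosome IV, 2464469 to 2465439) encodes a lysozyme of the pharynx and intestine with a known part in killing Gram-positive bacteria. In the poly(A) table it was listed at 0 in wild type and at 10.3 FPKM in CstF50 RNAi, and it did not pass (q-value 0.107). The authors' status for its test was OK, and no fold is given because a fold over a listed 0 is not defined. In rRNA-depleted RNA it had 0 and 0 counts in A and 189 and 81 in B, or 52.0 and 52.6 normalized counts in B. Against a floor of 3 counts over both libraries of A (3.04 normalized counts) it was at least 17.2-fold higher in B (authors' adjusted p-value 0.000148).

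The calls of both ilys genes rest on A libraries that differ in depth. Without library 1 of A, the deeper of them, the limma-voom log2 fold changes were 4.80 for ilys-2 and 4.74 for ilys-3. With library 2 of A left out they were 4.75 and 6.28. Each of these fits keeps only 1 library of A, so it cannot show whether the calls hold.

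By limma-voom 5 members were higher and 1 lower in B, where 27.8% of 19958 genes were called, 16% as higher and 11.8% as lower. The libraries of A and B did not overlap for 7 of the 8 members, 5 of them higher and 2 lower in B, but the same held for 67.8% of all genes (40.3% higher, 27.5% lower), so non-overlap alone did not set these genes apart. Without library 1 of A, limma-voom called 3 members (lys-4, lys-7 and lys-8) and 6.99% of 19607 genes. Without library 2 of B it called all 8 members and 36.2% of 19264 genes, so the number of calls over all genes moved with the library left out as well.

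In each of the 8 members the value had the same sign in CstF50 RNAi against wild type and in B against A. Of these, 5 were higher and 3 (lys-2, lys-4 and lys-5) were lower in both. Among 8446 genes tested in poly(A) RNA, 55.7% shared the sign, whereas lys-5 among the members had not been tested there. Most of the 8 differences did not pass in at least 1 table, the signs of lys-2 and lys-4 in poly(A) RNA turned when taken relative to the median gene, and conditions A and B were not assigned from this.

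The members lie in 3 short runs of lysozyme genes, except lys-7 and lys-8. On chromosome V the run is lys-1, lys-2 and lys-3, and lys-3, which is outside the 8, had 1.00 and 6.77 FPKM (log2 fold change 2.75, q-value 0.0359). In rRNA-depleted RNA lys-3 had 5.41 and 53.5 normalized counts in A and B (adjusted p-value 0.0707). That run thus held a called rise in poly(A) RNA beside lys-1 and lys-2, which did not pass. When p-values were adjusted over every gene listed, lys-3 did not pass either (adjusted p = 0.178). On chromosome IV lys-4, lys-5 and lys-6 lie on the same strand with 1129 and 1326 bases between them. Their means gave log2 fold changes of -0.86, -0.78 and -0.47 for B against A, of which only that of lys-4 passed the authors' test. The libraries of lys-6 overlapped, with 90.7 and 20.1 normalized counts in A against 32.2 and 48 in B, and without library 1 of A its limma-voom log2 fold change turned from -0.69 to 0.80. In poly(A) RNA lys-6, which the authors had not tested, had 2.55 and 3.64 FPKM. Elsewhere on that chromosome ilys-3, ilys-2 and ilys-1 also share a strand, and ilys-1 was listed at 0 FPKM in both groups and had 0 and 1.48 normalized counts. The genes of a run are related in sequence, and how the authors' counting divided reads between them was not analysed here.

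Of the 8 other lysozyme genes the authors' DESeq test called none between A and B. At an unadjusted p-value under 0.05 there were 2, lys-3 (0.00648) and lys-10 (0.0179). The limma-voom fit left out lys-9 and ilys-1, which had fewer than 10 counts in all. It called 3 of the others higher in B, where 16% of 19958 genes were called higher. These were lys-3 (adjusted p = 0.0194), lys-10 (adjusted p = 0.0297) and ilys-5 (adjusted p = 0.0403). The most abundant lysozyme gene in poly(A) RNA was ilys-5, outside the 8, which fell from 5321 to 2083 FPKM (log2 fold change -1.35, implied SE 0.45, q-value 0.0255). Relative to the median gene the log2 fold change was -0.46 (adjusted p = 0.769). In rRNA-depleted RNA it had 8157 and 9255 normalized counts in A and B (adjusted p-value 0.889).

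Among the effector and regulator genes around the lysozymes, the pathogen-induced effectors and the regulators of intestinal defence had list medians above that of all genes in both tables. In rRNA-depleted RNA the median of 0.41 for these regulators did not stand apart. It lay beside 0.35 for the p38, 0.32 for the DBL-1 and 0.27 for the insulin pathway list, and 0.42 for the pharynx markers. Among 16 pathogen-induced effectors tested in poly(A) RNA 1 was higher and none lower, with a list median of 0.60 beside -0.90 for all genes. The test relative to the median gene called 5 of them, each higher. The called gene was sysm-1, from 371 to 997 FPKM. In rRNA-depleted RNA 8 of 23 were higher in B and none lower, with a median of 1.06 beside 0.02. They included irg-5, with 5.37 and 65.5 normalized counts, C17H12.8 with 487 and 1796, and the lectin gene clec-67 with 159 and 521. The lectin gene clec-60 was at 0 in A and reached 30.4 normalized counts in B.

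The caenopores are pore-forming peptides that attack bacterial membranes. Of 16 tested in poly(A) RNA 2 were higher and 1 lower, with a median of -0.80. The gene spp-5 rose from 1252 to 5394 FPKM and spp-17 from 1781 to 5038 FPKM, while spp-4 fell from 590 to 117 FPKM. In rRNA-depleted RNA spp-4 was again the called gene, with 541 and 212 normalized counts in A and B, and none of the 23 was higher.

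For the genes of the signalling pathways, the share over all genes was 16.8% called in poly(A) RNA and 8.31% in rRNA-depleted RNA. Each pathway list held 9 genes, so its counts are given as a description beside these shares. In the p38 pathway, in which a kinase cascade ends at the MAP kinase PMK-1, 1 of 7 tested genes was lower in poly(A) RNA. It was pmk-1 itself, from 19.9 to 3.27 FPKM (q-value 0.0254), but relative to the median gene its adjusted p was 0.327. In rRNA-depleted RNA the adaptor gene tir-1 was higher in B, with 281 and 820 normalized counts, 1 of 9 genes.

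In the DBL-1 pathway none of 4 tested genes passed in poly(A) RNA, and the transcription factor gene sma-9 was higher in B, with 900 and 1496 normalized counts, 1 of 9. In the insulin pathway 2 of 6 tested genes were lower in poly(A) RNA, the lipid kinase gene age-1 (19.5 to 6.49 FPKM) and the phosphatase gene daf-18 (83.7 to 32.7 FPKM), with adjusted p-values of 0.657 and 0.766 relative to the median gene. The receptor gene daf-2 was higher in B, with 2265 and 3797 normalized counts, 1 of 9. Of the other regulators of intestinal defence none of 5 passed in poly(A) RNA (median -0.41), while zip-2, fshr-1 and cebp-1 were higher in B, 3 of 9, with 615 and 1424, 193 and 442, and 138 and 300 normalized counts (list median 0.41).

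**Figure D4:**
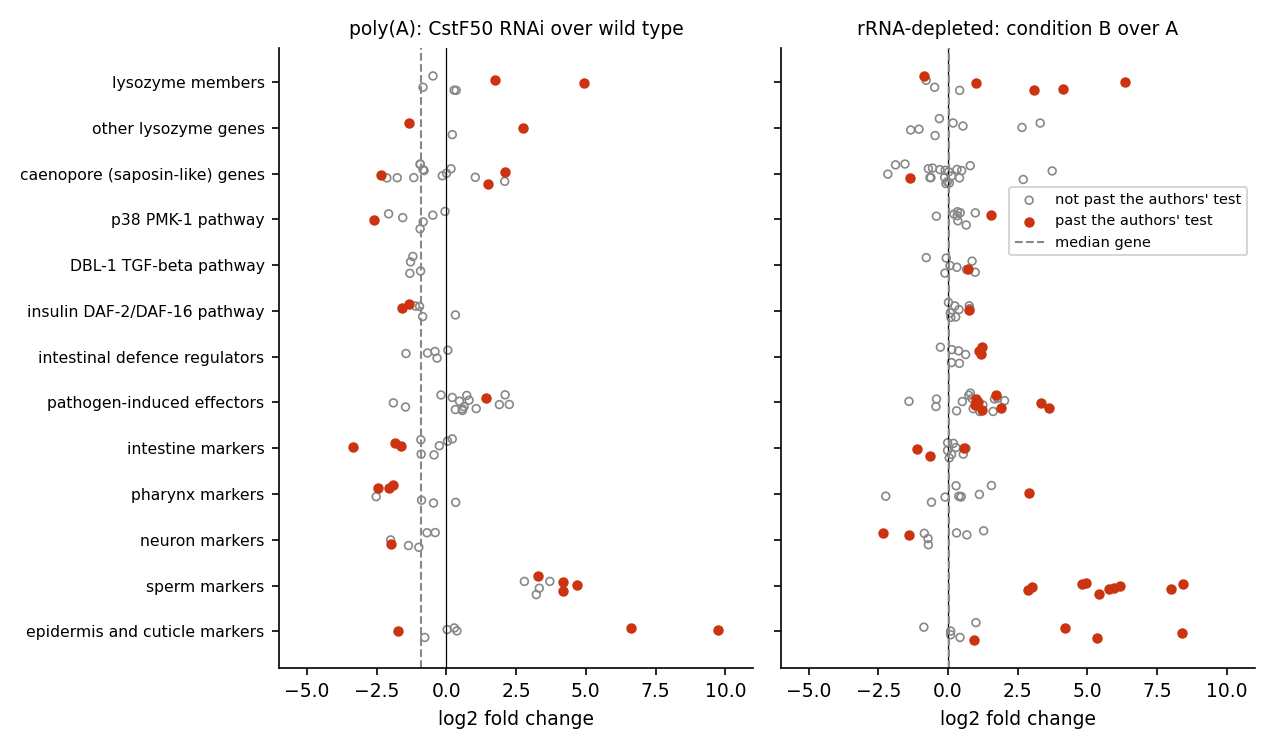
Log2 fold changes of single genes in the lysozyme list, the pathway lists and the marker lists, in poly(A) RNA (left, tested genes) and rRNA-depleted RNA (right, genes with 0 counts in A at their lower bound). Where the mean in B was itself under the floor of 3.04 normalized counts, that bound lies below 0 though B was the higher condition. Among these are lys-9 at -1.34 and ilys-1 at -1.04. Filled points passed the authors' test and the dashed line marks the median gene; pathogen-induced effectors have medians of 0.60 and 1.06, and sperm markers lie far to the right in both panels.

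The intestine and the pharynx are tissues in which lysozymes act, and their markers are given here beside the lysozymes. Of 9 tested intestine markers 3 were lower in CstF50 RNAi (pept-1, act-5 and erm-1) and none higher, and relative to the median gene only pept-1 remained lower (adjusted p = 0.0421, against 0.273 and 0.587). Over all 11 matched markers, tested or not and with vit-2 included, the summed level was 28549 FPKM in wild type against 20334 FPKM under CstF50 RNAi. In rRNA-depleted RNA 2 of 11 were lower in B and 1 higher, with sums over the 9 recovered genes of 36620 to 37096 normalized counts in A and 34869 to 35190 in B. Among the markers that those sums leave out is the vitellogenin (yolk protein) gene vit-2, the marker called higher. Its means of 140817 in A and 208337 in B (adjusted p-value 0.0487) are far above the sums. No intestine marker was listed at 0. Pharynx markers were lower in 3 of 7 genes in poly(A) RNA and higher in 1 of 10 in B, with sums of 1827 to 1969 in A and 2388 to 2699 in B. Neuron markers were lower in 1 of 6 in poly(A) RNA and in 2 of 8 in B. The 2 were rab-3, with 287 and 108 normalized counts in A and B, and unc-31, with 143617 and 28606. The unc-31 mean in A is near that of vit-2, and whether its row counts that gene alone was not tested. Relative to the median gene none of the pharynx or neuron markers passed in poly(A) RNA.

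Sperm markers were higher in CstF50 RNAi in 4 of 8 tested genes, with a summed level of 31.9 and 438 FPKM. They were higher in B in 10 of 10, with sums of 114 to 165 normalized counts in A and 4966 to 7187 in B, and 4 of the 10 were at 0 in A. Epidermis and cuticle markers were higher in 2 and lower in 1 of 7 in poly(A) RNA, and higher in 4 of 9 in B with 1 at 0 in A. Over all 9, tested or not, their sums were 1622 and 2267 FPKM in wild type and CstF50 RNAi. Between A and B those sums were 7234 to 7273 and 11638 to 13351 normalized counts. The part of these tissues in the lysozyme values was not tested.

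The genes closest to each called member, by distance over both log2 fold changes among 7761 genes (7762 for ilys-2), were listed as a description. For lys-7 the nearest was C53A3.2, with log2 fold changes of 1.89 in poly(A) RNA and 3.01 in rRNA-depleted RNA (distance 0.167), followed by gur-4 (0.42) and gst-24 (0.483). For lys-8 they were T04D3.5 (0.036), col-140 (0.042) and K09H9.5 (0.046), and for lys-4 pcp-1 (0.011), Y59C2A.3 (0.039) and W09D6.5 (0.054). For ilys-2 they were the collagen gene col-133 (0.605), the sperm gene msp-57 (0.624) and gpdh-1 (0.845). The genes compared had at least 1 FPKM in both groups and 10 normalized counts in both conditions. With 0.54 FPKM in wild type and 0.677 normalized counts in A, ilys-2 itself was under these limits, so genes as close to silent could not be listed.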

How the data were processed

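RNA from 8 libraries was extracted with Trizol, per the labels' protocols; Bowtie, DESeq and build ce10 are named in the submitters' processing notes without versions or roles, while counter, annotation and filters are not known from those notes. As deposited, the authors' poly(A) table holds FPKM, p-values and q-values, 1 FPKM per gene and group, in the layout of Cuffdiff per the file headers. For rRNA-depleted RNA the authors deposited a mean signal of normalized counts for conditions A and B with p-values and adjusted p-values, in the layout of DESeq per the file headers. Loci are printed as in the authors' table.

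Genes were called at a q-value or adjusted p-value under 0.05. Fold changes were recomputed from the group values, and each poly(A) SE is the size of the log2 fold change over the normal deviate that matches its p-value. Whole counts per library were solved from the means (tolerance 0.6 units of the last digit, unique solutions, means up to 30000) for 25479 genes in A and 25403 in B; libraries 1 and 2 of a condition are named by larger and smaller size factor, not by label. They were fitted with limma-voom (limma 3.58.1, R 4.3.3, a written-out TMM scaling, at least 10 counts in all). A chi-square test of library 1 against library 2 gave 4.51 per degree of freedom (A) and 24.5 (B), which is above sampling noise for both pairs. This value grows with depth, and the libraries of B were deeper. Among genes past a limit of 100 counts, the SD of the log2 difference between the libraries was 0.34 (A) and 0.37 (B). The recovery, limma-voom and the test relative to the median gene were tested on simulated data. The alternatives are given in the closing section.

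Members and lists were chosen with earlier results of these data known. Named list genes are at most 4 called genes per list and table with the largest change; lys-3, lys-10 and ilys-5 outside the 8 and erm-1 belong to these lists. Genes most alike were the 3 closest per called member with all values above 0. Of the listed symbols, 1 intestine and 1 neuron symbol had no match. Sequences were not used here.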

Additional observations from a re-analysis of the deposited data

How the results depend on the processing

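In poly(A) RNA 2 members were called, also relative to the median gene; with p-values adjusted over every listed gene the count was 1, and with at least 1 FPKM in both groups it was also 1, because ilys-2 then leaves the test. Relative to the median gene the log2 fold change of lys-2 turned from -0.84 to 0.06 and that of lys-4 from -0.48 to 0.41, by construction of a median of -0.90. Pseudocounts of 1 and 0.1 FPKM gave ilys-2 a log2 fold change of 3.50 and 4.69. In rRNA-depleted RNA the authors' test called 5 members, and 5 with at least 10 normalized counts, 4 relative to the median gene (ilys-3 has no fold), and 6 by limma-voom with either scaling. With 1 library left out, limma-voom called between 3 (without library 1 of A, the deeper library of A) and 8 (without library 2 of B), against 6 with all libraries, while the calls over all genes were 1370 of 19607, 6974 of 19264 and 5543 of 19958; the cause was not tested. All rRNA-depleted signs of the 8 members held in these settings. Over all lists, with the 8 members and the 8 other lysozyme genes included, 25 cases passed in poly(A) RNA and 20 relative to the median gene. In rRNA-depleted RNA these were 40 and 33. The lower number there comes from called genes at 0 in A, such as ilys-3, which have no fold and were not tested relative to the median. No paired analysis was possible because the deposited columns carry no replicate numbers. Poly(A) depth is unknown, and lys-5, ilys-2 and ilys-3 rest on few counts in A.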
